A study of Zea mays with 9 samples.

Results

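The transcripts described here are the 150 whose level varied least over 9 microarrays of maize roots. They were chosen from the data: among the entries that the scanner software found well above background and unmarked on all 9 arrays, and outside the 200 with the highest mean, these 150 had the smallest standard deviation (SD) over all arrays. Of the 39372 transcripts on the array, 26456 were well above background on every array, 20517 of these carried no mark as a non-uniform spot or a population outlier, and 20317 remained eligible without the brightest 200. The set is therefore 0.738% of the eligible transcripts. Since all arrays entered the choice, the spread, the levels and the treatment differences of the 150 are given as a description with no test.

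Seedlings of the maize hybrid P0423, 4 days old, were grown for 3 days in a nutrient solution with a protein hydrolysate (Bio), with a mixture of free amino acids copying its composition (Aa), or with inorganic N as ammonium phosphate (N). All 3 solutions held 11.3 mg of total N per litre and shared a basal nutrient mixture with a small amount of ammonium phosphate. Each treatment had 3 arrays, each with RNA of the pooled roots of 24 seedlings, so that the spread between arrays is one between pools and not between plants. A level here is the log2 of an intensity minus the log2 of the array's own 75th percentile, so that 0 stands for that percentile. This percentile was 617 to 648 intensity units on the Bio arrays, 660.5 to 803 on the Aa arrays and 680.1 to 962 on the N arrays.

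A transcript of even level serves as a yardstick in quantitative RT-PCR: the measured gene is divided by it, so that unequal amounts of RNA cancel out. Laboratories usually take genes that most cells need all the time, such as actin and tubulins of the cytoskeleton, glyceraldehyde-3-phosphate dehydrogenase of glycolysis, elongation factor 1-alpha of translation, or enzymes that attach ubiquitin to proteins. An even level on an array is always relative to the scaling of that array. It says nothing about what the protein does, and in pooled tissue an even total can hide opposite changes in different cells.

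The study itself used a ubiquitin-conjugating enzyme, GRMZM2G027378_T01, as its qRT-PCR reference, which makes it the natural neighbour of the 150. Its primer pair is shown because it defines the stretch that was amplified, 5′ to 3′ and read from the primer list of the study.
GRMZM2G027378_T01 forward: tgcgttaatcacgagacagg
GRMZM2G027378_T01 reverse: aatcacaaagacaggcaggg

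The level of this reference was 5.64, 5.74 and 5.69 on the Bio arrays, 5.58, 5.76 and 5.83 on the Aa arrays and 5.78, 5.72 and 5.55 on the N arrays. The treatments overlapped fully, and the highest array lay above the lowest by a factor of 1.21. Its SD of 0.0933 was larger than that of all 150 members and placed it 239th among the 26456 transcripts above background when marks were disregarded. It was not eligible itself, since its spot was marked on 6 of the 9 arrays, and its probe was among the brightest, with 53 unmarked transcripts of a higher mean.

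The 150 members had SDs between 0.0422 and 0.0916, with a median of 0.0792 (log2). The median eligible transcript had an SD of 0.298, and the quartiles were 0.211 and 0.443. In linear terms, 1 SD was 5.64% for the median member and 22.9% for the median eligible transcript. The ratio of the highest to the lowest of the 9 arrays ran from 1.08 to 1.25 among the members, with a median of 1.18, against a median of 1.88 over the eligible transcripts. In 100 members the 9 arrays stayed within a factor of 1.2, as they did in 119 eligible transcripts in all.

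**Figure D1:**
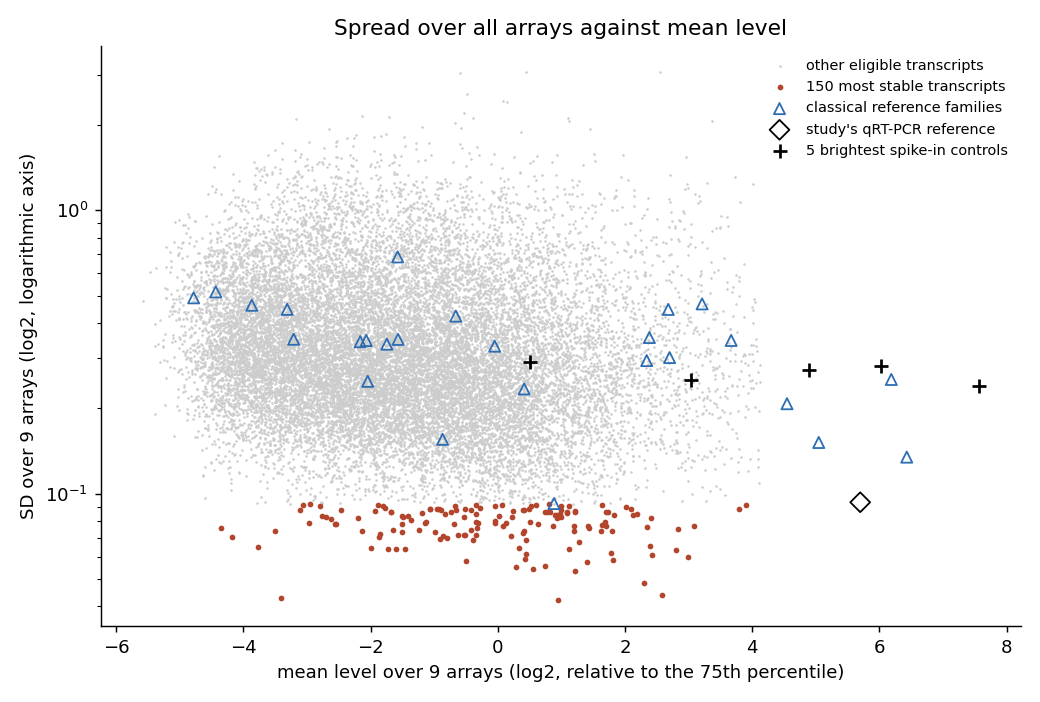
Each point is a transcript, with its mean level over the 9 arrays on the x axis (log2, relative to the 75th percentile) and its SD over the 9 arrays on a logarithmic y axis (log2 units). The 150 members fill the lower edge up to an SD of 0.0916, the study's qRT-PCR reference lies just above it at a level of 5.70, and the 5 brightest spike-in controls (crosses) lie between 0.240 and 0.291. Triangles are entries of classical reference families that were well above background on all arrays, marked spots included.

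The smallest SD belonged to GRMZM2G161680_T01, with levels of 0.93, 0.97 and 0.87 in Bio, 0.95, 0.89 and 0.96 in Aa and 1.002, 0.94 and 0.98 in N. GRMZM2G380377_T01 came next with an SD of 0.0427 and levels of -3.44, -3.45 and -3.41 in Bio, -3.38, -3.48 and -3.35 in Aa and -3.37, -3.37 and -3.43 in N. This gene is EREB56, also named DBP4, of the AP2/EREB family of DNA-binding transcription factors, many of which respond to ethylene, drought or cold. GRMZM2G171488_T01 followed with an SD of 0.0439, levels of 2.58, 2.54 and 2.64 in Bio, 2.57, 2.54 and 2.62 in Aa and 2.62, 2.62 and 2.53 in N, and with the narrowest range of all members, a factor of 1.08. In each of these 3 transcripts the arrays of the 3 treatments were intermingled.

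The next 7 by SD were AC218972.3_FGT001, GRMZM2G086236_T01, AC205326.3_FGT002, GRMZM2G160958_T01, GRMZM2G480620_T01, GRMZM5G808775_T01 and GRMZM2G118098_T01, with SDs of 0.0485 to 0.058. AC205326.3_FGT002 read 0.65, 0.60 and 0.56 in Bio, 0.48, 0.56 and 0.57 in Aa and 0.51, 0.58 and 0.50 in N. Its Bio arrays sat in the upper part of the range and touched those of the other treatments. GRMZM2G118098_T01 read -0.43, -0.56 and -0.47 in Bio, -0.48, -0.47 and -0.49 in Aa and -0.55, -0.62 and -0.48 in N, so that its 3 Aa arrays were nearly equal while Bio and N spread around them. No function is stated for these transcripts in the gene table used.

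**Figure D2:**
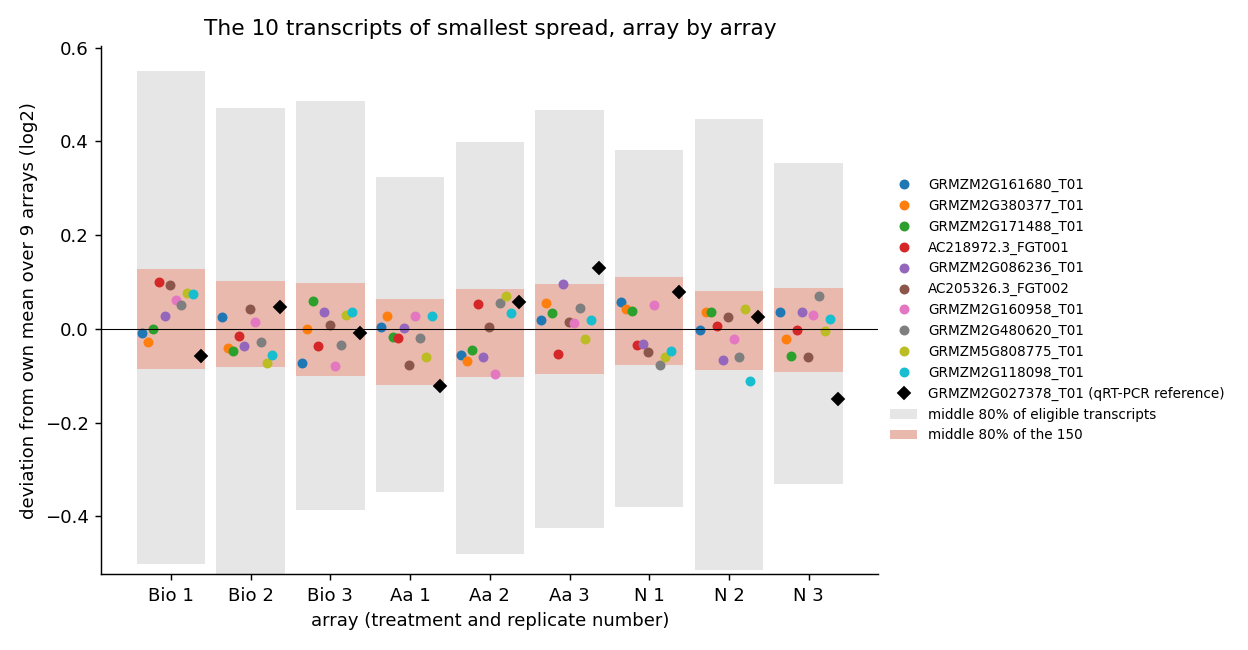
Deviation of each array from the transcript's own mean over 9 arrays (log2, y axis) for the 10 members of smallest SD (circles) and for the qRT-PCR reference of the study (diamonds), by array on the x axis. Grey and red bars span the middle 80% of the eligible transcripts and of the 150. The diamonds leave the red bars on replicates 1 and 3 of Aa and replicate 3 of N, where the reference read 5.58, 5.83 and 5.55.

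At the limit, the members GRMZM5G882189_T01, GRMZM2G312521_T01 and GRMZM2G027043_T01 had SDs of 0.0915, 0.0916 and 0.0916. The first 3 left out, GRMZM2G347645_T01, GRMZM2G074567_T01 and GRMZM2G012052_T01, had SDs of 0.0921, 0.0922 and 0.0923. The limit therefore falls within a continuous run, and 258 eligible transcripts had an SD below 0.1. The transcript ranked 153 is ubc7, another ubiquitin-conjugating enzyme, which read 0.70, 0.88 and 0.94 in Bio, 0.78, 0.92 and 0.99 in Aa and 0.87, 0.93 and 0.95 in N. Its lowest array was replicate 1 of Bio, and the other 8 lay between 0.78 and 0.99.

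Mean levels of the members ran from -4.36 to 3.90 with a median of 0.05, against a median of -1.63 over the eligible transcripts. These are brightness values of single probes, which depend on the probe as well as on the amount of transcript. When the eligible transcripts were split by mean level into 10 classes of equal size, the dimmest class held 2 members and the brightest 44, and 76 members (50.7%) lay above the 75th percentile, as did 21.3% of the eligible transcripts. The median SD of all eligible transcripts fell less steeply, being 0.346 in the dimmest class and 0.267 in the brightest. The requirement of unmarked spots also moved with level: it removed 0.227% of the dimmest and 70.1% of the brightest such class of the transcripts above background. The bright members are thus drawn from the minority of bright transcripts whose spots were unmarked on all arrays.

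The 3 dimmest members were GRMZM2G455192_T01, GRMZM2G487376_T01 and GRMZM2G379913_T01. GRMZM2G455192_T01 read -4.38, -4.49 and -4.30 in Bio, -4.31, -4.39 and -4.43 in Aa and -4.32, -4.24 and -4.38 in N, so that even close to background its arrays kept within a factor of 1.19. The 3 brightest were GRMZM2G066538_T01, GRMZM2G379758_T01 and GRMZM2G591728_T01. GRMZM2G066538_T01 read 3.91, 4.00 and 3.96 in Bio, 3.77, 3.99 and 3.92 in Aa and 3.98, 3.81 and 3.79 in N. The treatments overlapped in both transcripts.

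The gene table held 88 of the 150 members (58.7%) and 10136 of the eligible transcripts (49.9%), and most of its names for members are placeholders or markers of genetic maps. Beside EREB56, gene names of known function were found for 4 further members, and no role is given for the names HST and TPS9. GRMZM2G083950_T01 is crp1, a pentatricopeptide repeat protein of the chloroplast that is needed for the processing and translation of photosynthetic messages. It read -1.58, -1.61 and -1.63 in Bio, -1.59, -1.59 and -1.74 in Aa and -1.54, -1.57 and -1.53 in N, with an SD of 0.0636. Replicate 3 of Aa was the one array below the rest, and the 3 N arrays lay above all others.

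GRMZM2G110548_T01 is epc101, a homologue of the enhancer of polycomb proteins, which in yeast belong to a histone acetyltransferase complex. Its levels were -1.78, -1.73 and -1.65 in Bio, -1.82, -1.61 and -1.71 in Aa and -1.70, -1.70 and -1.76 in N. The treatment means were equal to 2 decimals at -1.72 ± 0.065 in Bio, -1.72 ± 0.104 in Aa and -1.72 ± 0.036 in N (SD, n = 3 each).

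GRMZM2G045005_T01 is tgase, a transglutaminase, an enzyme that links glutamine residues of proteins to amines. It read 1.04, 1.07 and 1.07 in Bio, 1.03, 1.03 and 1.05 in Aa and 1.28, 1.08 and 1.19 in N. The Bio and Aa arrays were almost level, and its spread came from replicates 1 and 3 of N. GRMZM5G840560_T01 is Tie-dyed2, a callose synthase-like protein known from a leaf mutant that fails to export sugars through its veins. It read 2.16, 2.10 and 2.10 in Bio, 1.997, 2.19 and 2.03 in Aa and 2.10, 1.97 and 2.24 in N, with the widest scatter among the N arrays.

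Of the gene families looked up in the table, 3 held a member each. The families were chosen by symbol after values had been seen, and their SDs describe the same 9 arrays. Only entries with a matching name in the gene table were counted. Counts and medians therefore cover a named part of each family and not the whole family. Of the 14 eligible AP2/EREB factors, EREB56 was the only member, while the median SD of the family was 0.549 and 4 lay below the eligible median. Of 25 eligible chromatin factors, epc101 was the only member, with nfc103 (0.0969) next among them, and 17 lay below the eligible median (family median 0.218). Of 5 eligible pentatricopeptide repeat proteins, crp1 was the only member, and 4 lay below the eligible median. MYB, bHLH, bZIP, NAC and WRKY factors, auxin response factors, PIN auxin carriers, glutathione S-transferases, TIFY repressors, aquaporins, HAK potassium transporters, cellulose synthases, autophagy, ribosomal and heat shock proteins held 0 members. Among these the family medians ran from 0.187 for 8 autophagy proteins to 0.891 for 4 heat shock proteins, with 0.272 for 13 ribosomal proteins and 0.809 for 5 PIN carriers. The families without a member had 3 to 37 eligible entries each. Since the set is 0.738% of the eligible transcripts, nothing is read from their counts of 0.

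No entry of the classical reference families was a member. These families had only 0 to 4 eligible entries each that were found by symbol, and the set is 0.738% of the eligible transcripts. A count of 0 is near that share, so nothing is read from it. The entry of smallest SD was ubc7 (0.0923) among the 2 ubiquitin-conjugating enzymes found by symbol, and the other, GRMZM2G132759_T01, had 0.156. The study's reference GRMZM2G027378_T01, which the symbols did not find, had 0.0933. Among glyceraldehyde-3-phosphate dehydrogenases the entry of smallest SD was gpc4 (0.249, rank 7489), and the family reached 0.685 in GAPC3. Cullin-4, a scaffold of ubiquitin ligases, had 0.234. The most even eligible actin, Maz95, had 0.350, the eligible beta tubulin tub4 0.347, the most even eligible alpha tubulin 0.462 and the eligible ubiquitin MUB3 0.515. Their mean levels were -1.57, -2.07, -3.87 and -4.43, and brighter actins and tubulins carried marks and were not eligible. Some entries that were not eligible were more even than these eligible ones. The actin GRMZM2G067985_T01 had 0.152 and elongation factor 1-alpha 0.208, each with a mark on 1 array. The ubiquitin GRMZM2G419891_T01, one of the brightest 200, had 0.135.

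Treatment differences of the members were small by construction. The largest in size were 0.15 in Bio vs. N, 0.16 in Aa vs. N and 0.15 in Bio vs. Aa (log2), which are factors of 1.11, 1.12 and 1.11. The median size was 0.047, 0.038 and 0.053 in these 3 comparisons, against 0.191, 0.183 and 0.191 over the eligible transcripts. Since no member spanned more than a factor of 1.25 over the 9 arrays, none could reach a 2-fold difference, and no test of the members is given. Over the whole array, limma found 0 transcripts (0% of 38553 tested in Bio vs. N, 38453 in Aa vs. N and 38619 in Bio vs. Aa) that changed 2-fold or more with an adjusted p not above 0.01. At an unadjusted p below 0.05 it found 2717 (7.05%) in Bio vs. N, 2828 (7.35%) in Aa vs. N and 1896 (4.91%) in Bio vs. Aa. The methods' t-test, run without their permutations and Bonferroni correction, gave 103 transcripts in Bio vs. N, 227 in Aa vs. N and 59 in Bio vs. Aa at an unadjusted p not above 0.01 and a change of 2-fold or more, and 0 in each after Benjamini-Hochberg adjustment.

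Arrays of the compared treatments did not overlap in 16 members for Bio vs. N, beside 12.2% of the eligible transcripts, in 12 for Aa vs. N beside 16.4%, and in 18 for Bio vs. Aa beside 9.71%. For Bio vs. N, 10 of the 16 were higher in Bio (6.18% of the eligible transcripts) and 6 lower (6.01%). For Aa vs. N, 5 were higher (7.64%) and 7 lower (8.74%) in Aa. For Bio vs. Aa, 15 were higher (5.72%) and 3 lower (3.99%) in Bio. Nothing is read from these counts, since the rule used the same arrays.

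Some members with non-overlapping arrays illustrate how small such shifts were. GRMZM2G591728_T01 read 3.19, 3.12 and 3.22 in Bio against 2.97, 3.05 and 3.07 in Aa, and the N arrays, at 3.07, 3.10 and 3.04, were below those of Bio and overlapped those of Aa. GRMZM5G848696_T01 read -0.10, -0.24 and -0.20 in Bio, -0.26, -0.38 and -0.36 in Aa and -0.33, -0.26 and -0.35 in N, the 3 Bio arrays being the highest. GRMZM2G166875_T01 was the reverse in Bio vs. Aa, with -1.89, -2.01 and -2.10 in Bio and -1.84, -1.86 and -1.85 in Aa. Each of these differences was about 0.15 in size, with a standard error of 0.143 to 0.147 in the limma fit. Limma draws the variance of each transcript towards that of all transcripts, so these errors exceed the SDs of the 3 transcripts over all 9 arrays, which were 0.0768 to 0.0893.

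The largest differences in Aa vs. N were in GRMZM2G360688_T01, GRMZM2G169871_T01 and tgase, all lower in Aa. GRMZM2G360688_T01 read -1.09, -1.21 and -1.20 in Aa and -0.94, -1.07 and -1.01 in N. In Bio vs. N they were in GRMZM2G128214_T01 (0.15), GRMZM2G126517_T01 (-0.14) and GRMZM5G848696_T01 (0.13). GRMZM2G128214_T01 read 1.36, 1.19 and 1.30 in Bio and 1.06, 1.13 and 1.21 in N, where replicate 2 of Bio fell below replicate 3 of N.

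**Figure D3:**
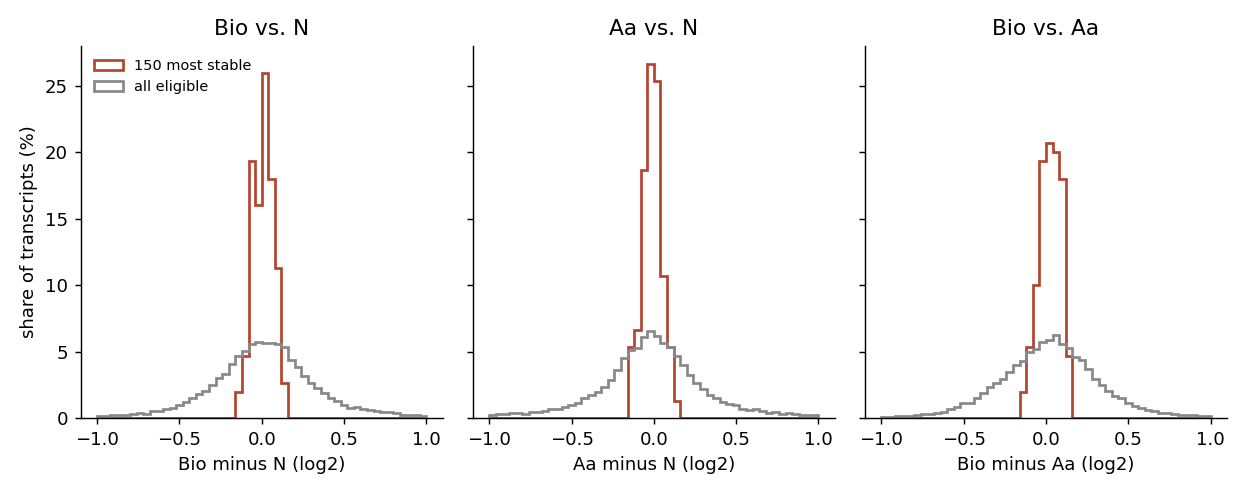
Distribution of the differences between treatment means (log2, x axis) as a share of transcripts (%, y axis) for the 150 members and for all 20317 eligible transcripts. The members keep within 0.16 in size in all 3 comparisons, and between 2.10 and 4.71% of the eligible transcripts lie beyond 1 in size, outside the axes.

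The variance of each transcript over the 9 arrays was split by treatment and by replicate number, each of which takes 25% of the degrees of freedom. Treatment held a median of 21.6% of the variance of a member and 25.8% of that of an eligible transcript. The replicate number, which stands for 1 slide by the barcodes in the file headers and may also stand for 1 of the 3 runs of the experiment, held 22.2 and 34.3%. These shares come from the arrays that the choice used and are given as a description. Each of the 9 arrays was the highest or the lowest in 27 to 40 members. Replicate 1 of Bio was extreme in 26.7% of the members, 28 times as the highest and 12 times as the lowest array, and in 33.2% of the eligible transcripts. Replicate 1 of Aa was extreme in 23.3% of the members, 8 times as the highest and 27 times as the lowest, and in 13.6% of the eligible transcripts.

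The measure that the choice did not fix directly is the array left out. It is not fully apart from the choice, since the other arrays of its slide stayed in use. Arrays with the same number tended to deviate together. When the 150 were chosen on 8 arrays, 88 to 110 of the members were chosen again, and 64 members were chosen in all 9 such sets, among them the 10 of smallest SD, crp1 and epc101. Deviations were taken only for transcripts well above background and unmarked on the array left out, 143 to 150 of those chosen. The chosen transcripts deviated in the ninth array by a median of 0.156, 0.134 and 0.127 for the Bio arrays, 0.104, 0.131 and 0.0975 for the Aa arrays and 0.109, 0.0964 and 0.0979 for the N arrays. The eligible transcripts deviated by 0.274, 0.270 and 0.237 in Bio, 0.178, 0.221 and 0.235 in Aa and 0.197, 0.240 and 0.184 in N. In all 9 arrays the chosen transcripts were closer to their mean, by a factor of 1.69 to 2.49 between the medians. In the 8 arrays that chose them, however, the same transcripts deviated by a median of only 0.053 to 0.058, so that the array left out showed 1.68 to 2.94 times as much.

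**Figure D4:**
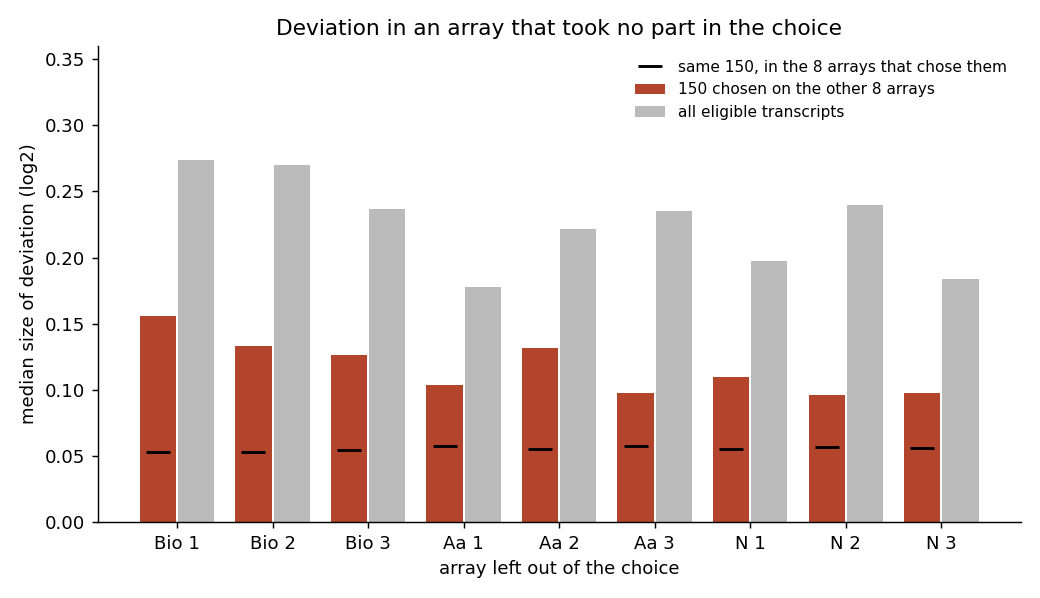
Median size of the deviation (log2, y axis) in the array left out of the choice (x axis), from the mean of the other 8, for the 150 transcripts chosen on those 8 arrays (red) and for all eligible transcripts (grey). Red and grey bars hold only transcripts well above background and unmarked on the array left out. Black lines give the deviation of the same 150 in the 8 arrays used, each from the mean of the other 7. The red bars, from 0.0964 to 0.156, are below the grey bars on every array and above the black lines.

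When a whole treatment was left out, fewer members were chosen again than without 1 array. They were 50 without the Bio arrays, 60 without the Aa arrays and 52 without the N arrays. The transcripts chosen on Aa and N differed in Bio from the mean of the other arrays by a median size of 0.084, against 0.164 over the eligible transcripts, and 0 of 147 exceeded 0.5 beside 9.47% of the eligible. For those chosen without Aa the values were 0.096 against 0.163, with 1 of 144 above 0.5 beside 11.2%. For those chosen without N they were 0.076 against 0.161, with 2 of 135 above 0.5 beside 13.4%. None of the chosen transcripts changed 2-fold in the treatment left out. The matching share of the eligible transcripts was not computed. In the comparisons between single treatments it was 2.10 to 4.71%, so few such changes would be found in a set of this size.

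Other probes of the same genes gave a second readout. The gene table joins 6 members, each with 1 gene, to 8 further probes designed for other gene models, of which 7 were well above background on all arrays. The SDs of these 7 were 0.123 to 0.232, all above those of the members they belong to (0.0598 to 0.0884) and below the eligible median of 0.298. That they exceeded the members was close to fixed in advance, since the members were chosen for the smallest SDs. Of the 7, 3 carried marks, on 3, 4 and 5 arrays, which would have kept them from being eligible. The second probe of GRMZM2G359365_T01 (SD 0.0614) had an SD of 0.123, with levels of -2.70, -2.57 and -2.77 in Bio, -2.47, -2.84 and -2.57 in Aa and -2.55, -2.67 and -2.76 in N. The 2 further probes of Tie-dyed2 had 0.232 and 0.156. One of them, GRMZM2G553532_T01, with marks on 3 arrays, read 1.90, 1.82 and 1.97 in Bio, 2.04, 1.98 and 1.99 in Aa and 2.22, 2.15 and 2.31 in N, its N arrays being the highest, which the member probe did not show. Whether such probes measure the same transcript was not tested.

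Spike-in controls give measures of technical spread, though not the same measure as the SD of a member. These are control transcripts added to each sample in fixed amounts, each with 32 spots on an array. Within an array the SD between the 32 spots was 0.107 to 0.133 for the 5 brightest. Over the 9 arrays, 370 eligible transcripts, the members included, had an SD below 0.107. The first SD is between places on 1 array, the second is of a single place over the arrays. The members are therefore not shown to vary less than the technical spread. The array medians of these 5 controls had SDs of 0.240 to 0.291, but they moved together: relative to their mean they stood at 0.50, 0.23 and 0.02 in Bio, -0.06, 0.04 and -0.28 in Aa and 0.03, -0.08 and -0.41 in N. After this common shift was removed, SDs of 0.034 to 0.060 were left. These are SDs of medians of 32 spots, whereas a member has a single spot. Against the spike-ins instead of the 75th percentile, the median SD of the members was 0.267, beside 0.401 for the eligible transcripts, and 0 members remained among the 150 of smallest SD. The evenness of the members is thus one relative to the other transcripts of the array, and what moved the spike-ins was not tested.

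Which transcripts are chosen depended on how spread was measured. The coefficient of variation kept 143 members and quantile normalization 115, whereas the SD within treatments kept 65 and the median absolute deviation 28. When each SD was set against that of transcripts of like level, 57 members were kept. AC218972.3_FGT001, AC205326.3_FGT002, GRMZM2G161680_T01, GRMZM2G118098_T01 and crp1 were chosen under 11 of 12 other settings over all arrays, all except the normexp background correction. Among the 12 are the authors' scaled values, which repeat the scaling of the rule, so that outcome was fixed in advance. Under the settings added after the data were seen, none of the 5 was chosen with spike-in scaling, and of the 5 only AC218972.3_FGT001 with normexp after extreme local backgrounds were replaced. With normexp, which works on signals before the scanner software has removed trends across the array, 10 members were kept. With extreme local backgrounds replaced, 13 were kept, among them EREB56, epc101 and AC218972.3_FGT001, and the median SD of all 150 members was then 0.115, beside 0.230 for the eligible transcripts.

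**Figure D5:**
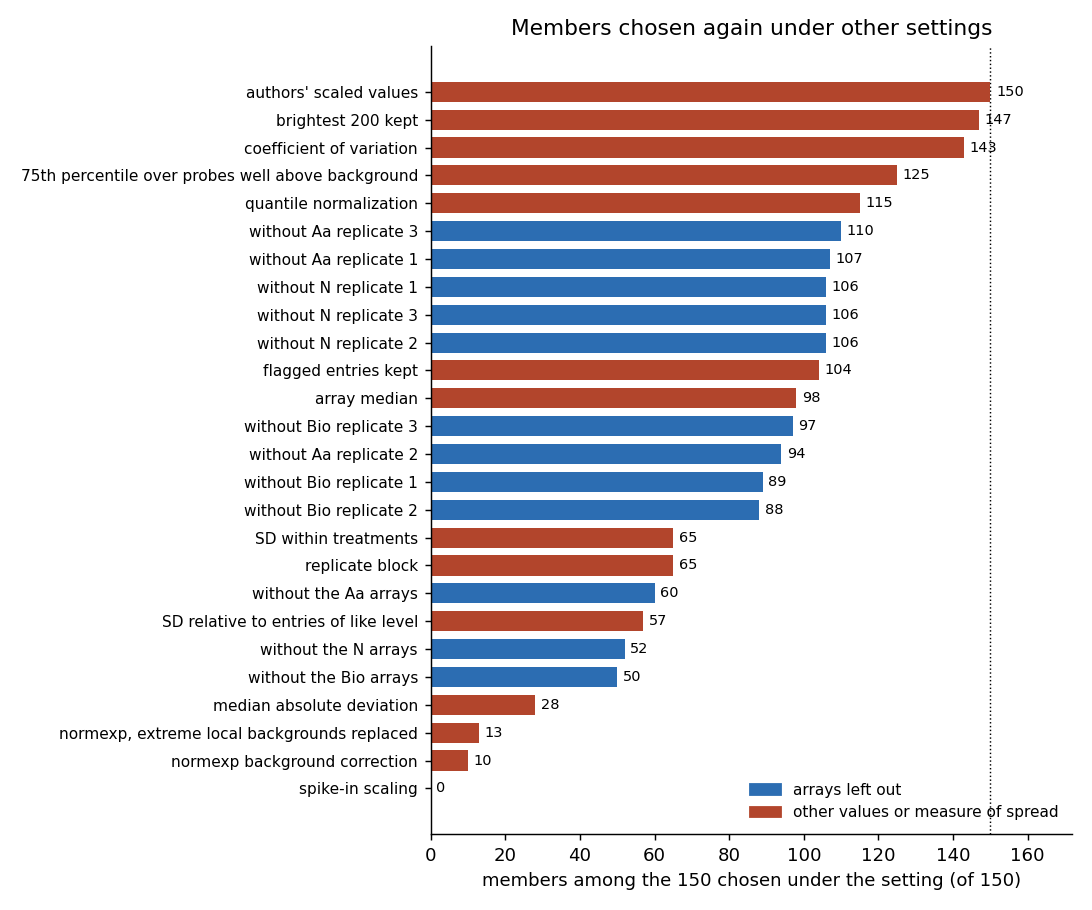
Number of the 150 members (x axis) among the 150 transcripts chosen under each alternative (y axis), for sets chosen with arrays left out (blue) and for other values or measures of spread (red). The dotted line marks all 150, and the counts run from 0 with spike-in scaling to 150 with the authors' scaled values. The latter repeat the scaling of the rule, so their count was fixed in advance.

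Markers of the tissue were checked in the same levels. Scarecrow1 and rth3, a root hair gene, exceeded background on every array, and rtcs, needed for crown roots, on 8. Of 9 entries for light-harvesting proteins and the Rubisco small subunit, 4 exceeded background on every array and 1 on no array. Their summed level was 2.60 to 17.5 in Bio, 0.828 to 2.41 in Aa and 0.982 to 3.70 in N, in units of the 75th percentile, so that Bio overlapped with N and lay above Aa. This sum was mostly lhcb6, with mean levels of 2.42 in Bio, -0.10 in Aa and 0.47 in N. No other entry had a treatment mean above -1.84. Not all entries were highest in Bio: cab48 had means of -5.87 in Bio, -5.23 in Aa and -5.64 in N. No marker was a member, and their part in the spread of the members was not tested.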

How the data were processed

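The authors deposited spot intensity values from Agilent Feature Extraction 10.5.1.1, which subtracted the background and removed trends across the array, and a table with these intensities scaled by 1 factor per array. Here levels were formed from the unscaled intensities as log2 values minus that of the 75th percentile on each array. The members and lists were chosen with earlier results of these data known. Named are the 10 members of smallest SD, 3 on either side of the limit, the 3 brightest and 3 dimmest, the 3 with the largest difference per comparison, members with a gene name of known function and the reference families. The keyword lists planned on gene descriptions could not be used, because the gene table (Zm-B73-REFERENCE-NAM-5.0) holds names without descriptions, and symbol lists written after the values were seen replaced them. It was used for names only, without coordinates.

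Limma 3.58.1 in R 4.3.3 was fitted over all 9 arrays and 39372 transcripts, with marked spots as missing and Benjamini-Hochberg adjustment. The code of the choice and of the fit was checked on simulated data. For the fit the planted changes were large, so this check says nothing on its power in these data. Same-numbered arrays tended to deviate together over the eligible transcripts. The correlation of their deviations from the treatment means was between 0.171 and 0.479 in all 9 pairs. Pairs with different numbers ran from -0.560 to 0.288, so the ranges overlapped. Whether the slide, the run of the experiment or both gave this pattern was not tested. Each slide held 1 array per treatment in a fixed order, so position and treatment cannot be told apart. The number of arrays limits the precision. Python 3 with numpy and pandas made the choice, its alternatives and the figures.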

Additional observations from a re-analysis of the deposited data

How the results depend on the processing

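All 150 members were chosen again with the authors' scaled values, 147 with the brightest 200 kept, 143 by the coefficient of variation, 125 with the percentile taken over probes well above background, 115 with quantile normalization and 104 with marked entries kept. Fewer were chosen again with the array median (98), the SD within treatments (65), the SD relative to transcripts of like level (57), the median absolute deviation (28) and the normexp background correction (10). With the replicate block, that is, after the mean of the arrays with the same number was subtracted, 65 were. Alternatives added after the data were seen kept 13 (normexp with extreme local backgrounds replaced), 0 (spike-in scaling), 50 (without the Bio arrays), 60 (without the Aa arrays) and 52 (without the N arrays). On the N replicate 1 array, 9 local backgrounds exceeded 10 times the array's median, up to 726800 against 22. Replacing such backgrounds moved the normexp count only from 10 to 13. The median SD of the 150 members moved from 0.355 to 0.115. Leaving out 1 array gave 88 to 110 members, with 89, 88 and 97 without replicates 1, 2 and 3 of Bio and 94 without replicate 2 of Aa.

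Limma called 0 transcripts in each of the 3 comparisons under all alternatives run, the replicate block (0 in each) and each array left out (0 to 0) included. At an unadjusted p below 0.05 the block gave 3813 transcripts in Bio vs. N, 3903 in Aa vs. N, 2954 in Bio vs. Aa. In the same order limma gave 552, 661 and 72 with normexp. With extreme local backgrounds replaced it gave 9128, 2887 and 6129, so these unadjusted counts varied widely with the processing. The cause of these changes was not tested. Levels near background and the bright transcripts lost to marks limit what the choice could see. Motifs in promoters and sequences of the members were not analysed here.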
